A study of Homo sapiens with 21 samples.

Results

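The transcriptomes of hTERT-HPNE cells 24 h after hydrogen peroxide (H2O2) and 24 h after neocarzinostatin (NCS) were compared directly. The comparison used 6 of the 21 libraries of the series, 3 biological replicates from cells treated with 300 μM H2O2 and 3 from cells treated with 400 ng/ml NCS, and was carried out on every gene whose value varied, which was 19694 of the 23368 genes listed. Both groups came from the same line, immortalized nontransformed pancreatic cells that carry telomerase (hTERT) and are described as nestin-expressing, and both received fresh medium with the agent. The other libraries came from untreated cells collected at the start of the time course and from cells 4 and 8 h after either agent, again with 3 replicates a group. No untreated cells were sampled at 24 h. In any difference from untreated cells, the agent and 24 h of further culture in fresh medium therefore cannot be told apart. Values are rLog values on a log2 scale, made by the authors over all 21 libraries. This transformation shrinks differences, most strongly for genes with few reads, so a difference of rLog values understates a fold change. The file holds no counts, and the depth of each library is unknown. Library medians ran from 7.145 to 7.189. All differences are given as H2O2 minus NCS and were tested with limma.

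H2O2 is an oxidant that acts on protein thiols, iron and DNA bases, and NCS is a radiomimetic drug that cuts both strands of DNA. Both agents activate p53, whose targets stop the cell cycle. Oxidants also activate NRF2, a transcription factor that switches on genes for glutathione, thioredoxin and iron storage through antioxidant response elements, and the integrated stress response, in which phosphorylation of the translation factor eIF2α raises ATF4 and with it genes for amino acid synthesis and import.

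By 24 h the groups differed little in size but at many genes. Only 3 genes passed an absolute log2 difference of 1 with an adjusted p-value under 0.05 (0.0152% of the genes tested), and all 3 were higher in H2O2-treated cells. The count was 5 without H2O2 replicate 1 and 2 without NCS replicate 1. At a limit of 0.5 with the same adjusted p-value, 91 genes were higher in H2O2-treated cells (0.462%) and 66 were lower (0.335%). With the adjusted p-value alone, 2171 genes were higher (11.0%) and 2144 lower (10.9%), and 2540 of these 4315 genes differed by under 0.2. Counts of list members at 24 h are to be read against these shares of 11.0% and 10.9%. The median absolute difference was 0.18 over the called genes and 0.042 over all genes, beside a median SE of 0.036. The 3 replicates of one group lay entirely above or below those of the other for 36.5% of all genes, for 4219 of the 4315 called genes and for all 157 genes past the limit of 0.5. The split into higher and lower calls depended on scaling. When library medians were aligned, which moved the differences by -0.026, 1785 genes were higher and 5800 lower, and 3121 of the lower genes differed by under 0.1. Of these 5800 genes, 2996 had a mean rLog value under 5 over the 6 libraries, against 128 of the 2144 lower genes without alignment. Quantile normalization gave 2054 higher and 2084 lower genes. At the limit of 0.5 the aligned values gave 78 higher and 88 lower genes. For a single gene an exact permutation test of 3 libraries against 3 cannot give a two-sided p-value below 0.1, so p-values come from the fit across genes.

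Over all genes tested, the distance (Euclidean, rLog values) between an H2O2 library and an NCS library at 24 h had a median of 19.2 over 9 pairs, against 9.90 over the 6 pairs of replicates. The 9 distances between the treatments lay between 18.7 and 20.2, and the 6 within them between 8.97 and 10.2, so the ranges did not overlap. Either treatment lay farther from untreated cells, with medians of 40.4 for H2O2 and 39.6 for NCS. At the limit of 1, G0S2 lay just inside (1.03) and TRIB3 just outside (0.98). At the limit of 0.5, STXBP6 lay just inside (-0.503) and CDH11 just outside (-0.4997).

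**Figure D1:**
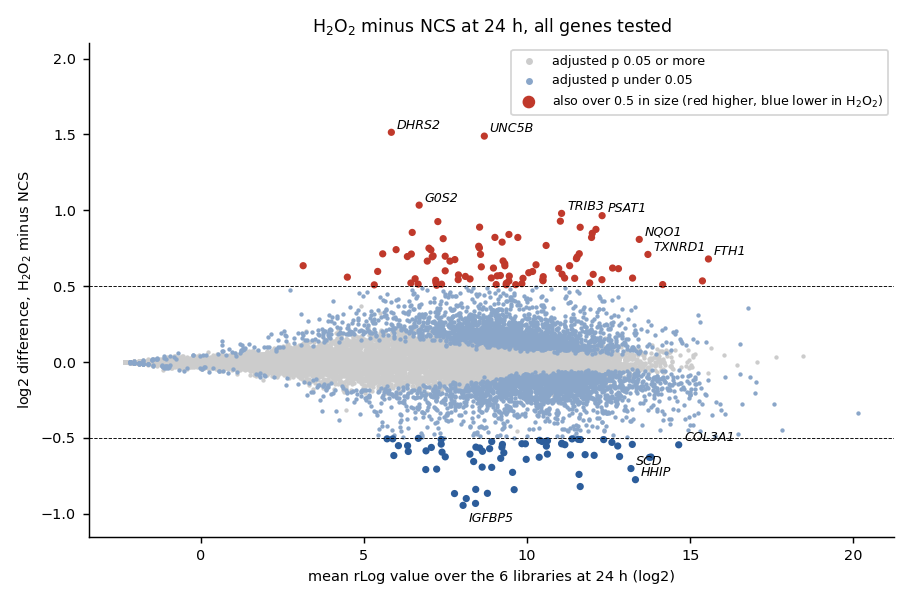
Log2 difference between H2O2 and NCS at 24 h (vertical axis) against the mean rLog value over the 6 libraries (horizontal axis, log2) for each of the 19694 genes tested. Grey points did not pass an adjusted p-value of 0.05, light blue points did, and large points also differed by over 0.5 (91 red, higher in H2O2, and 66 dark blue, lower).

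The 3 genes past the limit of 1 were DHRS2, UNC5B and G0S2. DHRS2, a short-chain dehydrogenase/reductase, had values of 6.51, 6.70 and 6.58 in H2O2-treated cells and 4.98, 4.90 and 5.36 in NCS-treated cells, beside a mean of 4.65 in untreated cells. The lowest H2O2 library was thus above the highest NCS library by more than the whole spread within either group (log2 difference 1.51, SE 0.094, adjusted p = 2.14e-09 from limma). UNC5B, a receptor for netrins, stood at 9.37, 9.43 and 9.49 after H2O2 and at 7.82, 7.99 and 8.02 after NCS, both well above the untreated mean of 6.56 (log2 difference 1.49, SE 0.078, adjusted p = 2.35e-10 from limma). G0S2, an inhibitor of adipose triglyceride lipase, was at 7.19, 7.24 and 7.19 after H2O2 and 6.10, 6.24 and 6.18 after NCS (log2 difference 1.03, SE 0.072, adjusted p = 8.44e-09 from limma). The differences of these genes at 8 h were 0.39, 1.54 and 0.86, and at 4 h 0.14, 0.22 and 0.15 in the same order. The change from 4 h to 24 h passed the interaction test for each of them, which in part restates their choice by size at 24 h (adjusted p = 2.72e-07, 6.07e-08 and 1.98e-06 from limma).

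**Figure D2:**
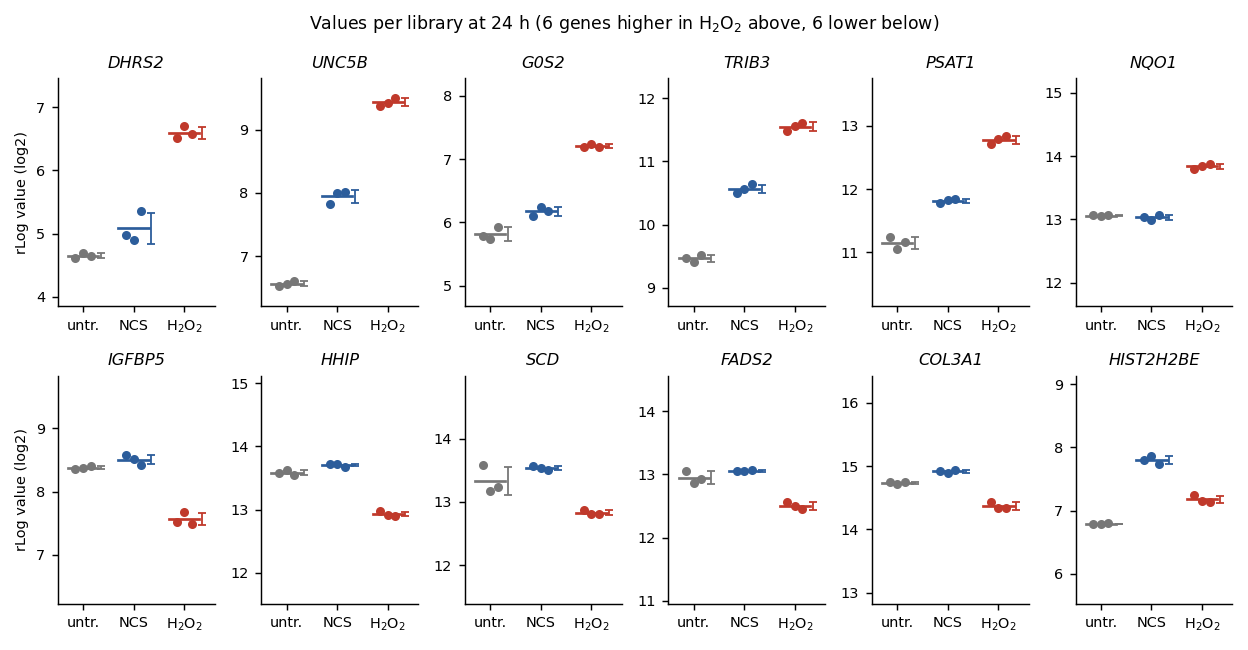
rLog values (vertical axis, log2) of 12 genes in each untreated library and each library 24 h after NCS or H2O2. Points are libraries, horizontal lines are group means and bars are 1 SD (n = 3), and every panel spans the same range. In the upper row each H2O2 library lies above all 3 NCS libraries, and in the lower row below them.

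Genes of the integrated stress response were higher after H2O2. Of 18 measured genes of this list, 15 were higher in H2O2-treated cells, 0 were lower and 3 did not pass the test (ATF5, -0.076, FGF21, -0.00069, and CTH, 0.065), with a median difference of 0.43 against -0.000278 over all genes. TRIB3, a pseudokinase that feeds back on ATF4, reached 11.47, 11.55 and 11.61 after H2O2 and 10.50, 10.55 and 10.64 after NCS (log2 difference 0.98, SE 0.090, adjusted p = 2.50e-07 from limma). Its untreated mean was 9.47, so that both treatments stood above untreated cells and H2O2 stood highest. DDIT4, an inhibitor of mTORC1, had values of 12.06, 12.05 and 12.10 and 11.15, 11.20 and 11.19 for the same groups (log2 difference 0.89, SE 0.080, adjusted p = 1.94e-07 from limma). NUPR1, a stress-induced chromatin protein, was higher by 0.77 and VLDLR, a lipoprotein receptor, by 0.75. The transcription factors of the list differed by less. ATF4 itself was higher by 0.34 (adjusted p = 0.000256 from limma), DDIT3, which encodes CHOP, by 0.51, CEBPB by 0.44, CEBPG by 0.37 and ATF3 by 0.35. PPP1R15A, which encodes the phosphatase subunit that reverses eIF2α phosphorylation, was higher by 0.44. The list median was 0.87 above untreated cells in H2O2 and 0.48 above them in NCS. With library medians aligned, 1 gene of the list was lower.

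The genes that supply amino acids differed with them. Of 14 genes for serine, asparagine and one-carbon synthesis, 10 were higher in H2O2-treated cells and 1 was lower, and of 12 amino acid transporters 10 were higher and 0 lower, with medians of 0.28 and 0.40. PSAT1, the aminotransferase of serine synthesis, measured 12.71, 12.79 and 12.84 after H2O2 and 11.78, 11.82 and 11.84 after NCS, with no overlap (log2 difference 0.96, SE 0.066, adjusted p = 6.47e-09 from limma). ASNS, asparagine synthetase, measured 12.46, 12.52 and 12.66 and 11.65, 11.65 and 11.72 (log2 difference 0.87, SE 0.071, adjusted p = 5.88e-08 from limma). PHGDH, the first enzyme of serine synthesis, was higher by 0.82, and MTHFD2, a mitochondrial folate enzyme, by 0.52. The exception was ALDH18A1, the first enzyme of proline synthesis, which was lower (-0.34, adjusted p = 5.12e-07 from limma). Among the transporters, SLC6A9 carries glycine and stood at 9.84, 9.89 and 9.85 after H2O2 against 8.91, 9.09 and 9.07 after NCS (log2 difference 0.84, SE 0.080, adjusted p = 3.84e-07 from limma). SLC7A11, the cystine importer, was higher by 0.69 and its partner chain SLC3A2 by 0.62, while SLC7A1, a transporter of cationic amino acids, differed by 0.021 without passing the test. In NCS-treated cells the median transporter stood 0.047 above untreated cells, and in H2O2-treated cells 0.50 above them. Of 20 cytosolic aminoacyl-tRNA synthetases, which load tRNAs with amino acids, 10 were higher and 2 lower, led by WARS (0.41), MARS (0.35) and CARS (0.33).

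Promoter sequences are shown for a pair of these genes, because both hold a match to TGATGNAA, a form of the C/EBP-ATF response element to which ATF4 binds. This motif was chosen after the values had been seen. The sequences are from RefSeq promoters on GRCh38.p14, written 5′ to 3′ on the strand of the gene and ending before its start, with the match in capitals. In ASNS (chr7:97872449-97872508, minus strand) the match begins 68 bases before the start, and in CHAC1 (chr15:40953241-40953300, plus strand), which encodes an enzyme that degrades glutathione, 209 bases before it and on the opposite strand.
ASNS: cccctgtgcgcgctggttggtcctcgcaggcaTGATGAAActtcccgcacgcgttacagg
CHAC1: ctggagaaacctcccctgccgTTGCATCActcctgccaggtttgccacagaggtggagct
Searched on both strands from 250 bases before to 50 after the start, TGATGNAA was found in 3.62% of all 35116 promoters. It was found in 4 of 26 promoters of the integrated stress response list (17 of its 18 genes had one in the table) and in 10 of 38 promoters of the amino acid and tRNA synthetase lists (22 of 46 genes had one), but in 5 of 95 promoters (5.26%) of the genes higher by over 0.5, 1 of 79 of those lower by over 0.5, 2 of 84 of the mitotic list and 0 of 35 of the sterol list. A match is a description of these letters and not evidence of binding.

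The antioxidant genes were higher in part. Of 17 genes for glutathione and NADPH supply, 11 were higher in H2O2-treated cells, 0 were lower and 6 did not pass the test (median 0.19). This list shares members such as CHAC1 with the integrated stress response list, so the counts of these lists are not independent. Of 27 NRF2-linked xenobiotic enzymes and exporters, 11 were higher and 2 lower (median 0.087), with 4 lower when library medians were aligned, and 1 lower with the replicate number as a block and when any library other than H2O2 replicate 3 was left out. NQO1, a quinone reductase, measured 13.80, 13.84 and 13.87 after H2O2 and 13.04, 12.98 and 13.07 after NCS, where the libraries lay around the untreated mean of 13.06 (log2 difference 0.81, SE 0.034, adjusted p = 3.13e-11 from limma). ABCC3, an exporter of conjugated compounds, measured 10.09, 10.17 and 10.12 and 9.29, 9.27 and 9.36 (log2 difference 0.82, SE 0.048, adjusted p = 1.00e-09 from limma). EPHX1, an epoxide hydrolase, was higher by 0.51 and AKR1C1, an aldo-keto reductase with near-identical relatives that can share its reads, by 0.47, while GSTM2, a glutathione transferase, was lower (-0.26, adjusted p = 0.000734 from limma). AKR1C1 had a low level, at 2.51, 2.48 and 2.48 in untreated cells. Enzymes of the pentose phosphate pathway, which regenerates NADPH, were higher by small amounts, with PGD at 0.19, TALDO1 at 0.30 and TKT at 0.22. GCLM, the regulatory subunit of glutamate-cysteine ligase, was higher (0.27, adjusted p = 3.47e-05 from limma), and GCLC, the catalytic subunit, differed by 0.12 (adjusted p = 0.162 from limma).

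In the list of thioredoxin, peroxiredoxin and related enzymes, members lay on both sides, 5 of 26 higher and 8 lower (median -0.048, and 5 lower without H2O2 replicate 3). The higher genes were TXNRD1, GLRX, SRXN1, TXN and PRDX6. TXNRD1, thioredoxin reductase, measured 14.01, 14.03 and 14.12 after H2O2 and 13.35, 13.33 and 13.36 after NCS, on either side of the untreated mean of 13.60 (log2 difference 0.71, SE 0.054, adjusted p = 2.46e-08 from limma). SRXN1, which repairs oxidized peroxiredoxins, was higher by 0.39 and GLRX, a glutaredoxin, by 0.41. The lower members included SOD3, the extracellular superoxide dismutase (-0.20), the methionine sulfoxide reductases MSRB3 (-0.20) and MSRA (-0.18), and the peroxiredoxins PRDX4 (-0.11), PRDX2 (-0.095) and PRDX5 (-0.091). Of the regulators, NFE2L2, which encodes NRF2, differed by 0.10 (adjusted p = 0.0671 from limma), and 2 of 10 NRF, BACH and small MAF factors were higher, MAFG (0.27) and KEAP1 (0.13, adjusted p = 0.0111, or 0.11 with adjusted p = 0.0607 without NCS replicate 2).

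Iron storage was among the clearest differences at high levels of expression. FTH1, the ferritin heavy chain, measured 15.84, 15.92 and 15.93 after H2O2 and 15.20, 15.23 and 15.22 after NCS (log2 difference 0.68, SE 0.037, adjusted p = 3.52e-10 from limma), and FTL, the light chain, 15.63, 15.66 and 15.63 and 15.08, 15.11 and 15.13 (log2 difference 0.53, SE 0.031, adjusted p = 8.90e-10 from limma). Reads of both can be shared with processed pseudogenes. Of 17 genes for heme and iron handling 7 were higher (4 without NCS replicate 1) and 2 lower, with ALAS1, the first enzyme of heme synthesis, higher by 0.54 and SLC40A1, the iron exporter ferroportin, by 0.24. HMOX1, heme oxygenase, measured 10.46, 10.56 and 10.50 and 10.03, 9.95 and 10.05 at 24 h (log2 difference 0.49, SE 0.055, adjusted p = 2.30e-06 from limma). Its difference had been 2.56 at 4 h and 2.05 at 8 h, so the residual was smaller than at 4 h (interaction adjusted p = 2.79e-12 from limma). Of 11 metallothioneins and zinc genes 3 were higher, MT1M (0.48), MT1E (0.35) and MT2A (0.31), a family whose near-identical members can share reads.

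Antioxidant response elements are shown for TXNRD1 (chr12:104215649-104215708, plus strand) and GCLM (chr1:93909431-93909490, minus strand), as matches to TGACNNNGC in RefSeq promoters on GRCh38.p14, written as above with the match in capitals. The match in TXNRD1 begins 99 bases before the start on the strand of the gene, and that in GCLM 34 bases before the start on the opposite strand.
TXNRD1: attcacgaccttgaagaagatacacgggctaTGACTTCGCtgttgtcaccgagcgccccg
GCLM: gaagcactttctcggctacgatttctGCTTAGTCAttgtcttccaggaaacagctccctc
On both strands the motif was found in 13.3% of all promoters, in 17 of 95 promoters (17.9%) of the genes higher by over 0.5, and in 9 of 79 (11.4%) of the genes lower by over 0.5. It was found in 9 of 26 promoters (34.6%) of the integrated stress response list, 7 of 38 (18.4%) of the amino acid and tRNA synthetase lists, 18 of 84 (21.4%) of the mitotic list and 2 of 35 (5.71%) of the sterol list. Of the 157 genes past this limit, 107 had a promoter in the table. The motif of AP-1, TGANTCA, which can overlap it, was found in 7.71% of all promoters, in 9 of 95 of the higher genes and in 4 of 79 of the lower genes.

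The most uniform list on the lower side was sterol and fatty acid synthesis. Of 32 measured genes 28 were lower in H2O2-treated cells, 0 were higher and 4 did not pass the test (among them HSD17B7, -0.13, FADS1, -0.10, and ACSS2, 0.070). The list median was -0.36. SCD, the stearoyl-CoA desaturase, measured 12.88, 12.80 and 12.81 after H2O2 and 13.57, 13.53 and 13.50 after NCS (log2 difference -0.70, SE 0.082, adjusted p = 4.14e-06 from limma). FADS2, a desaturase of polyunsaturated fatty acids, measured 12.56, 12.50 and 12.44 and 13.05, 13.05 and 13.06 (log2 difference -0.55, SE 0.043, adjusted p = 3.09e-08 from limma). Further members were HMGCS1, at the start of the mevalonate pathway (-0.52), and SQLE, squalene epoxidase (-0.52). INSIG1, which holds the SREBP factors in the ER, was lower by a difference of -0.54, and the factors themselves differed by -0.37 for SREBF2 and -0.14 for SREBF1. The list median stood at -0.27 against untreated cells in H2O2 and at 0.083 in NCS. Untreated replicate 1 lay above replicates 2 and 3 for SCD (13.59 against 13.17 and 13.24) and INSIG1 (11.42 against 11.09 and 11.16). It did not for HSD17B7 (7.35 against 7.46 and 7.30). How far the 2 medians rest on that library was not tested. At 8 h 19 members were lower and 3 higher, and at 4 h 11 and 5. Over all genes 15.4% were lower and 18.7% higher at 8 h, and 18.0% and 26.3% at 4 h, shares against which the counts of other lists at these times are also to be read. For 20 of the 32 members the difference was more negative at 24 h than at 4 h, and for 2 more positive, against 22.7% and 16.6% of all genes (interaction tests). Interaction counts of other lists are also to be read against these shares.

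Most genes of the matrix list were lower too. Of 33 genes for collagens, matrix and matrix enzymes 22 were lower in H2O2-treated cells and 5 higher (median -0.16), the higher count being 3 without H2O2 replicate 1, H2O2 replicate 2 or NCS replicate 1. COL3A1 measured 14.44, 14.34 and 14.34 after H2O2 and 14.92, 14.90 and 14.94 after NCS (log2 difference -0.55, SE 0.039, adjusted p = 9.55e-09 from limma), and COL1A2, a chain of type I collagen, 16.25, 16.19 and 16.19 and 16.68, 16.68 and 16.70 (log2 difference -0.47, SE 0.036, adjusted p = 2.83e-08 from limma). COL11A1 (-0.56), COL1A1 (-0.45) and FN1, fibronectin (-0.34), were lower, and COL6A3 (0.35), TNC, tenascin C (0.25), MMP3 (0.18), MMP14 (0.15) and TIMP1 (0.060) were the higher members. MMP3 had a low level, at 3.07, 3.04 and 2.95 in untreated cells. Among 25 targets of YAP and TGF-β, 11 were lower and 6 higher (median -0.072). The higher members were TGFBI (0.26), AJUBA (0.21), SMAD7 (0.18), SKIL (0.17), AXL (0.13) and AMOTL1 (0.054). The 4 lowest were smooth muscle genes, CNN1 (-0.61), TAGLN (-0.49), ACTA2 (-0.45) and MYL9 (-0.35), followed by THBS1 (-0.34) and CTGF (-0.31). TAGLN, an actin-binding protein, measured 15.50, 15.53 and 15.48 and 15.96, 16.01 and 16.00, with no overlap. LMOD1 (-0.87) and ACTG2 (-0.66), of smooth muscle actin filaments, lay outside the lists and were lower, and were picked out after their values had been seen. The median of the 33 matrix genes stood at -0.11 against untreated cells in H2O2 and 0.092 in NCS.

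Chaperones of the ER, where matrix proteins fold, were lower in H2O2-treated cells for 11 of 21 genes and higher for 2. CALR, calreticulin, measured 14.88, 14.87 and 14.87 after H2O2 and 15.26, 15.30 and 15.29 after NCS (log2 difference -0.42, SE 0.021, adjusted p = 1.43e-10 from limma). HSP90B1 (-0.37), PDIA4 (-0.37) and HSPA5, the ER chaperone BiP (-0.24), were lower, while HERPUD1, of ER-associated degradation (0.24), and EDEM1 (0.090) were higher. At 4 h this list had lain on the other side, with 17 genes higher and 1 lower, and for 18 of the 21 genes the difference was more negative at 24 h by the interaction test. Of 22 heat shock chaperones 8 were lower (5 without H2O2 replicate 3 or NCS replicate 1) and 2 higher, with DNAJB4 among the lower (-0.19).

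**Figure D3:**
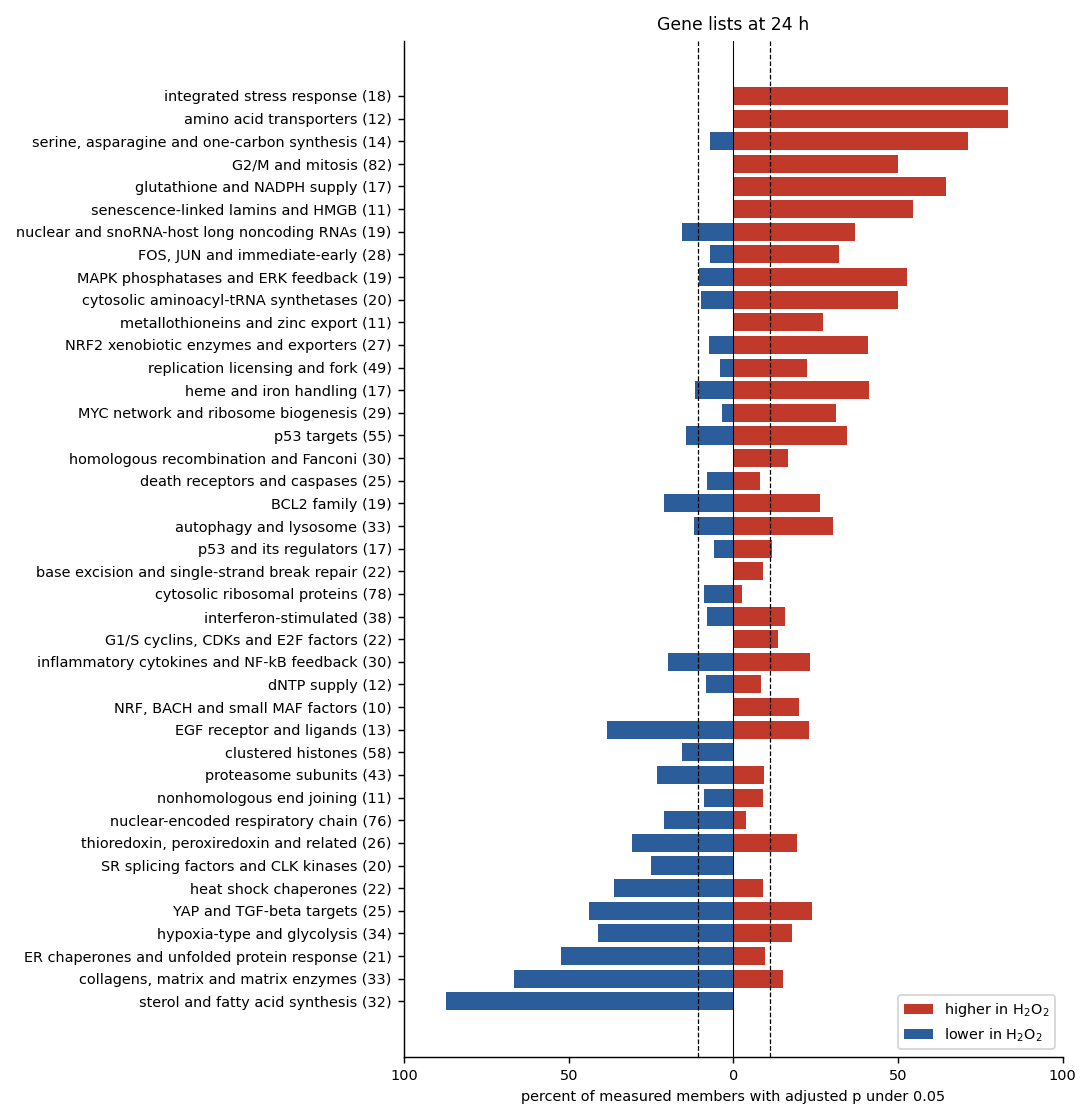
Percent of the measured members of each gene list (number in brackets) that were higher (red, to the right) or lower (blue, to the left) in H2O2 than in NCS at 24 h with an adjusted p-value under 0.05, ordered by list median. Dashed lines mark the shares over all genes, 11.0% and 10.9%. Only lists with 10 or more measured members are drawn.

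Genes of mitosis were lower 24 h after both agents than in untreated cells at the start, and less so after H2O2. The median of 82 genes of G2/M and mitosis stood at -1.70 against untreated cells in H2O2 and at -1.93 in NCS. Between the treatments 41 were higher in H2O2-treated cells, 0 were lower and 41 did not pass the test (median 0.19). The count fell to 25 without H2O2 replicate 1, the library with the highest PLK1 and TOP2A values of the group. PLK1, the mitotic kinase, measured 9.59, 9.38 and 9.42 after H2O2 and 8.89, 8.90 and 8.89 after NCS, beside an untreated mean of 11.77 (log2 difference 0.57, SE 0.11, adjusted p = 0.000550 from limma). TOP2A, topoisomerase IIα, measured 11.04, 10.93 and 10.97 and 10.42, 10.54 and 10.53 (log2 difference 0.48, SE 0.094, adjusted p = 0.000906 from limma). KIF2C, a kinesin (0.47), NEK2 (0.46), UBE2C (0.44) and CDC20 (0.44), which serve the anaphase-promoting complex, were higher. MKI67 differed by 0.21 (adjusted p = 0.0587 from limma, but 0.0494 with the replicate number as a block and 0.0133 with library medians aligned), CCNB1 by 0.17 (adjusted p = 0.208, but 0.040 in a fit of the 6 libraries alone) and FOXM1, a factor that drives such genes, by 0.046 (adjusted p = 0.606). In bulk RNA, fewer cells of a kind and less RNA per cell cannot be told apart.

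The promoter of PLK1 (chr16:23678829-23678888, plus strand) is shown because its cell cycle homology region, matched by TTTGAA, begins 29 bases before the start in the RefSeq promoter on GRCh38.p14.
PLK1: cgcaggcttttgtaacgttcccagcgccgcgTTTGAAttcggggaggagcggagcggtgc
On both strands TTTGAA was found in 15.2% of all promoters and in 51 of 84 promoters (60.7%) of the mitotic list, with 68 of its 82 genes in the table. The second form, TTCGAA, was found in 1.45% of all promoters and in 6 of 84. The E2F motifs TTTCCCGC and TTTGGCGC were found in 1.63% and 0.652% of all promoters and in 2 of 84 for each.

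S-phase genes differed less. Of 49 replication genes 11 were higher in H2O2-treated cells (7 without NCS replicate 1) and 2 lower, with DTL (0.27), MCM6 (0.22) and PRIM2 (-0.20) the largest. CDC6, a licensing factor, differed by -0.091 (adjusted p = 0.0673 from limma, but 0.0135 with library medians aligned and 0.0185 without NCS replicate 1), and CCNE2, cyclin E2, stood at 6.45, 6.42 and 6.43 and 6.43, 6.48 and 6.39, which overlap. Of 12 genes for nucleotide supply 1 was higher and 1 lower. Among 22 cyclins, CDKs and E2F factors of G1/S 0 were lower and 3 higher, E2F7 (0.30), CDK4 (0.26) and MYBL1 (0.25, or 0.19 with adjusted p = 0.0616 without H2O2 replicate 1). For repair, 5 of 30 genes of homologous recombination and the Fanconi pathway were higher (3 without H2O2 replicate 2 or 3) and 0 lower, 1 of 11 of end joining was higher and 1 lower, and 2 of 22 of base excision and single-strand break repair were higher and 0 lower. Over all genes 11.0% were higher and 10.9% lower. XRCC3, of homologous recombination, was higher (0.29) and had been lower in H2O2 at 4 h (-0.22). At 4 h 25 of the replication genes had been lower in H2O2 and 4 higher, and the difference was more positive at 24 h for 31 of 49. Of 11 lamin and HMGB genes 6 were higher, HMGB2 most (0.46), and LMNB1, lamin B1, differed by 0.21 (adjusted p = 0.0744 from limma, but 0.0127 in a fit of the 6 libraries alone and 0.0256 with library medians aligned).

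Targets of p53 stood above untreated cells after both agents, by a list median of 0.61 in H2O2 and 0.62 in NCS. Between the treatments 19 of 55 were higher in H2O2-treated cells, 8 were lower and 28 did not pass the test (median 0.05). Over all genes 11.0% were higher and 10.9% lower, so the count of lower targets was not far above its share. GDF15, a secreted stress cytokine that other stress pathways also induce, measured 12.41, 12.45 and 12.40 after H2O2 and 11.48, 11.62 and 11.61 after NCS, beside 9.17 in untreated cells (log2 difference 0.85, SE 0.11, adjusted p = 1.53e-05 from limma). SESN2, a sestrin (0.55), NINJ1 (0.49), GADD45A (0.45), BTG2, an antiproliferative factor (0.33), and MDM2, the ubiquitin ligase of p53 (0.24), were higher, and LIF, a cytokine (-0.50), DDB2, of nucleotide excision repair (-0.17), and CCNG1 (-0.18) were lower. CDKN1A, which encodes the CDK inhibitor p21, measured 15.68, 15.72 and 15.67 and 15.56, 15.61 and 15.62, where the libraries did not overlap but the difference of 0.091 did not pass the test (adjusted p = 0.477 from limma, but 0.031 in a fit of the 6 libraries alone). At 4 h 35 targets had been lower in H2O2 and 7 higher. For 35 of the 55 the difference was more positive at 24 h, and for 6 more negative, against 16.6% and 22.7% of all genes.

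Regulators of death differed by small amounts. Of 19 BCL2 family genes 5 were higher in H2O2-treated cells and 4 lower. BBC3, which encodes the death-promoting PUMA, measured 8.58, 8.49 and 8.54 after H2O2 and 8.19, 8.30 and 8.30 after NCS (log2 difference 0.27, SE 0.065, adjusted p = 0.00484 from limma). BAK1 (0.21) and BAX (0.15), which open mitochondria, and MCL1, which protects them (0.21), were higher, and BNIP3L (-0.19), BOK (-0.14), BNIP3 (-0.11) and BID (-0.10) were lower. PMAIP1, which encodes the death-promoting NOXA, differed by 0.086 (adjusted p = 0.452 from limma, but 0.0257 in a fit of the 6 libraries alone) and had differed by 0.85 at 4 h and 0.64 at 8 h. Of 25 death receptors and caspases 2 were higher and 2 lower, with none past 0.2 in size. Among 17 regulators of p53 2 were higher and 1 lower, and of 8 CDK inhibitors 1 was higher, CDKN3 (0.20). For the last 3 lists these shares are near or below those over all genes (11.0% and 10.9%).

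Growth factor signalling genes differed in both directions at 24 h. Of 19 MAPK phosphatases and ERK feedback genes 10 were higher in H2O2-treated cells and 2 lower. ETV4, an ERK-driven factor (0.46), PHLDA1 (0.43), DUSP4 (0.29) and DUSP6 (0.28), phosphatases of ERK, were higher, and DUSP8, a phosphatase of JNK and p38, was lower (-0.39). AREG, an EGF receptor ligand, measured 6.67, 6.64 and 6.72 after H2O2 and 6.07, 5.93 and 5.94 after NCS (log2 difference 0.70, SE 0.091, adjusted p = 1.56e-05 from limma). HBEGF, another ligand, was lower at 10.60, 10.66 and 10.61 and 11.06, 11.00 and 11.02 (log2 difference -0.40, SE 0.038, adjusted p = 3.31e-07 from limma), although it had been higher by 1.05 at 4 h. EGFR, the receptor, was higher (0.30) and ERBB3, a partner receptor, lower (-0.48). The list of 13 held 3 higher and 5 lower genes, 1 of which, BTC, differed by -0.012 only, whereas at 4 h 6 had been higher and 1 lower and at 8 h 5 and 1. Of 28 immediate-early genes 9 were higher and 2 lower at 24 h, against 23 and 1 at 4 h. FOS, a subunit of AP-1, differed by 1.68 at 4 h, 0.83 at 8 h and 0.071 at 24 h (adjusted p = 0.655 from limma), and JUN, its partner, by 0.071 at 24 h (adjusted p = 0.465). KLF4 (0.47) and ATF3 (0.35) kept the largest differences of this list.

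Cytokine genes were found on both sides. Of 30 inflammatory and NF-κB feedback genes 7 were higher (3 without H2O2 replicate 2 or NCS replicate 1, and 4 without H2O2 replicate 1 or NCS replicate 2) and 6 lower, with CXCL12, a chemokine (-0.51), LIF (-0.50), IL32 (-0.49) and PTGS2, the inducible cyclooxygenase (-0.35), on the lower side and CSF1 (0.36) and IL1B (0.29) on the higher. IL1B had a low level, at 3.83, 3.78 and 3.78 in untreated cells. Of 38 interferon-stimulated genes 6 were higher and 3 lower, shares near the 11.0% and 10.9% over all genes, with IRF1 (0.35), a transcription factor, and XAF1 (0.35) higher and DDX58, which encodes the RNA sensor RIG-I (-0.32), and IFIT1 (-0.30) lower. Of 8 ID and BMP feedback genes 2 were higher, ID1 (0.25) and HEY1 (0.24). HEY1 did not pass without H2O2 replicate 1 (adjusted p = 0.0554 from limma), H2O2 replicate 3 (adjusted p = 0.0787) or NCS replicate 3 (adjusted p = 0.108).

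Of 34 hypoxia-type and glycolysis genes 14 were lower in H2O2-treated cells and 6 higher, and the members moved apart. VEGFA, the endothelial growth factor, measured 10.75, 10.79 and 10.78 after H2O2 and 10.17, 10.23 and 10.23 after NCS (log2 difference 0.56, SE 0.056, adjusted p = 6.26e-07 from limma), and NDRG1 was higher by 0.64, whereas P4HA1, a collagen prolyl hydroxylase (-0.51), PDK1, a kinase that restrains pyruvate oxidation (-0.43), and LDHA, lactate dehydrogenase (-0.20), were lower. Of 76 nuclear genes of the respiratory chain 16 were lower (28 with library medians aligned) and 3 higher, led by NDUFB1 (-0.23). Of 33 autophagy and lysosome genes 10 were higher and 4 lower. SQSTM1, the autophagy receptor p62, measured 13.47, 13.53 and 13.52 and 12.93, 12.98 and 12.96 (log2 difference 0.55, SE 0.038, adjusted p = 7.10e-09 from limma), while the paralogs MAP1LC3B (0.29) and MAP1LC3A (-0.34) lay on opposite sides. Of 29 MYC network and ribosome biogenesis genes 9 were higher and 1 lower. Of 78 ribosomal protein genes 2 were higher and 7 lower, of 43 proteasome genes 4 and 10, and of 20 splicing factors and CLK kinases 0 and 5. Over all genes 11.0% were higher and 10.9% lower. Both ribosomal counts and the higher counts of the proteasome and splicing lists were near or below those shares. The lower counts were smaller with some libraries left out, at between 1 and 4 for the ribosomal proteins whichever library it was, at 2 for the proteasome without H2O2 replicate 1 or NCS replicate 3 and at 2 for the splicing factors without H2O2 replicate 3. The immunoproteasome subunits PSMB9 (0.35) and PSMB8 (0.22) led the higher proteasome genes. Of 19 long noncoding RNAs 7 were higher (3 without H2O2 replicate 3 and 4 without H2O2 replicate 2, NCS replicate 1 or NCS replicate 2) and 3 lower, among them the snoRNA hosts SNHG1 (0.41) and GAS5 (0.39). Of 7 genes of TXNIP, its relatives and their regulators 1 was higher, ARRDC2 (0.20), and 1 lower, MLX (-0.17), which is near the shares over all genes. No mitochondrially encoded gene was analysed here.

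Of 58 clustered histone genes measured 9 were lower in H2O2-treated cells (22 with library medians aligned) and 0 higher, beside 10.9% and 11.0% over all genes. Of the 58, 19 had a mean at or under 0 and only 6 a mean of at least 5. HIST2H2BE measured 7.25, 7.15 and 7.13 after H2O2 and 7.80, 7.87 and 7.74 after NCS, both above the untreated mean of 6.79 (log2 difference -0.62, SE 0.055, adjusted p = 1.53e-07 from limma). HIST1H2BD (-0.37), HIST1H2BK (-0.35) and HIST1H2BJ (-0.32) followed. These copies are near-identical, and most histone mRNAs lack the poly(A) tail used to select RNA, so their values are uncertain. The variants H1FX (0.57) and H1F0 (0.55), which lie outside the clusters, were on the higher side.

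Of the genes past the limit of 0.5, 62 of the 91 higher and 53 of the 66 lower genes were in no list. On the lower side, IGFBP5, which binds insulin-like growth factors, measured 7.52, 7.67 and 7.50 after H2O2 and 8.58, 8.51 and 8.43 after NCS, beside 8.38 in untreated cells (log2 difference -0.94, SE 0.054, adjusted p = 7.13e-10 from limma). CPA4, a carboxypeptidase, measured 7.95, 7.97 and 7.94 and 8.87, 8.92 and 8.85, where H2O2 stood near the untreated mean of 8.04 (log2 difference -0.93, SE 0.043, adjusted p = 5.92e-11 from limma). HHIP, which sequesters hedgehog ligands, measured 12.97, 12.91 and 12.91 and 13.72, 13.72 and 13.68 (log2 difference -0.78, SE 0.026, adjusted p = 1.26e-12 from limma). GALNT5, which starts O-linked glycans (-0.82), B3GALT2, a galactosyltransferase (-0.90), and KIAA1199, which degrades hyaluronan (-0.73), act on glycans. LRRN3 (-0.84) and NRXN3, a neurexin (-0.84), are membrane proteins known from neurons. QPRT, an enzyme of NAD synthesis (-0.69), PRICKLE1, of planar cell polarity (-0.71), and LOC730755 (-0.87) completed the 15 lowest genes with LMOD1, SCD, TP53INP2 and PADI1. On the higher side, FAM129A, a stress-linked regulator of translation, measured 11.41, 11.46 and 11.57 and 10.46, 10.60 and 10.60 (log2 difference 0.93, SE 0.061, adjusted p = 3.99e-09 from limma). SMOX, spermine oxidase, measured 8.95, 9.03 and 8.98 and 8.04, 8.04 and 8.21 (log2 difference 0.89, SE 0.073, adjusted p = 6.11e-08 from limma). TM6SF1 (0.93), LOC344887 (0.85), and KCNG1, a potassium channel subunit (0.82), were the others among the 15 highest.

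The markers of the line were present in both groups. NES, nestin, had means of 11.83 after H2O2 and 12.06 after NCS, and VIM, vimentin, 16.79 and 16.89. Of 5 nestin-linked and mesenchymal markers 3 were lower in H2O2-treated cells, NES (-0.23), CDH2 (-0.20) and VIM (-0.10), and the summed level of the list, as log2, was 16.91, 16.89 and 16.91 after H2O2 and 17.02, 17.01 and 17.01 after NCS. Of 9 duct and epithelial markers 1 was higher, KRT18 (0.10, adjusted p = 0.0162 from limma), their most abundant gene. KRT18 did not pass without H2O2 replicate 3 (adjusted p = 0.077), NCS replicate 1 (adjusted p = 0.0595) or NCS replicate 2 (adjusted p = 0.0717, limma), nor with library medians aligned. The summed level of these markers was 11.75, 11.75 and 11.77 against 11.65, 11.65 and 11.69, with KRT19 at 0.59, EPCAM at -1.76 and CFTR at -1.34 after H2O2. Acinar and islet markers were near the bottom of the scale, with CPB1 the most abundant of 7 at 0.95, and their summed level was 2.142 to 2.165 after H2O2 and 2.140 to 2.169 after NCS. Of these PNLIP passed the test at a difference under 0.01 in size, and lost its call without any 1 of H2O2 replicates 1, 2 and 3 or NCS replicates 1 and 2. Of 8 blood and endothelial markers 1 was lower, CD68 (-0.35), a lysosomal protein that many lines express and the most abundant of them, with summed levels of 10.14, 10.23 and 10.15 against 10.46, 10.59 and 10.49, while PTPRC stood at 0.92 and PECAM1 at 2.05 after H2O2. The part of these shifts in the differences above was not tested.

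Most of the larger differences at 24 h were already present at 8 h, in libraries that share no sample with those at 24 h. The calls at all times came from the same fit, with a shared spread for each gene, and from rLog values made over all 21 libraries. They are therefore not fully independent. Of the 91 genes higher by over 0.5 at 24 h, 75 (82.4%) were higher at 8 h by the adjusted p-value and 0 lower, against 18.7% and 15.4% of all genes. At 4 h 54 (59.3%) were higher and 7 lower, against 26.3% and 18.0% of all genes. Of the 66 genes lower by over 0.5, 55 (83.3%) were lower at 8 h and 0 higher, whereas at 4 h 21 (31.8%) were lower and 14 (21.2%) higher. Read the other way, these genes made up 2.04% of the genes higher and 1.81% of those lower at 8 h. For the 4315 genes called without a limit on size the shares were smaller. Of the 2171 higher genes 1088 were higher at 8 h and 210 lower, and of the 2144 lower genes 1044 were lower at 8 h and 195 higher. At 4 h 693 (31.9%) of the higher genes were higher and 515 (23.7%) lower, against 26.3% and 18.0% of all genes. Of the lower genes 618 (28.8%) were lower at 4 h and 492 (22.9%) higher, against 18.0% and 26.3% of all genes. The 24 h difference was more positive than the 4 h difference for 3278 genes (16.6%) and more negative for 4472 (22.7%), and it departed from the 8 h difference for 4216 genes (21.4%).

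The medians of the lists over time are described here, and no test compared the lists. The integrated stress response list had a median of 1.03 after 4 h, 0.77 after 8 h and 0.43 after 24 h. For 11 of its 18 genes the difference was more negative at 24 h than at 4 h, and for 1 more positive. CHAC1 went from 1.91 to 1.48 and 0.59. Amino acid transporters had medians of 0.47, 0.87 and 0.40, and mitotic genes of 0.27, 0.14 and 0.19. The difference was more negative at 24 h than at 4 h for 3 of 12 transporters and more positive for 1. For the 82 mitotic genes these counts were 17 and 5, shares no larger than the 22.7% and 16.6% over all genes. Sterol genes had medians of -0.061, -0.17 and -0.36, and ABCC3 (-0.030, 0.18 and 0.82) and NQO1 (0.036, 0.47 and 0.81) also differed most at 24 h. A set of 526 genes passed the test at all 3 times with opposite signs at 4 h and 24 h. The 5 with the largest difference at 24 h were GDF15 (-0.30 at 4 h and 0.85 at 24 h), FOXQ1, a forkhead factor (-0.23 and 0.74), TP53INP2, which acts in autophagy (0.088 and -0.74), PADI1, which converts arginine to citrulline (0.38 and -0.71), and PSG5, a pregnancy-specific glycoprotein with close relatives that can share its reads (0.15 and -0.64).

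**Figure D4:**
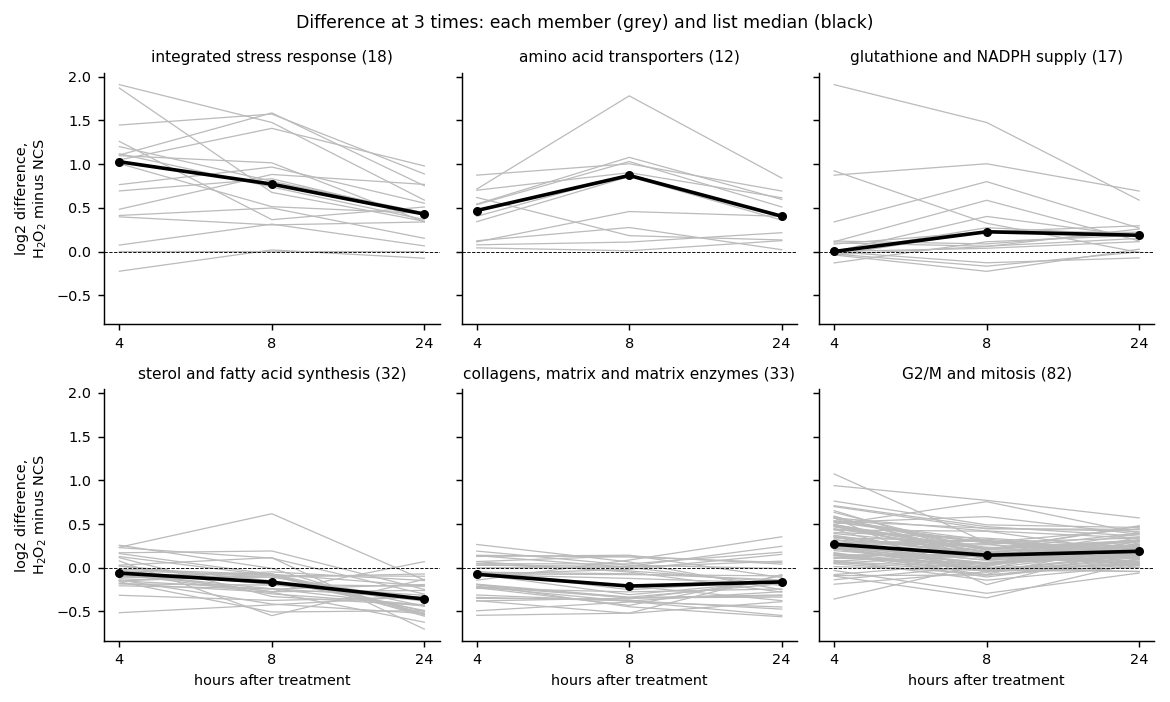
Log2 difference between H2O2 and NCS (vertical axis) at 4, 8 and 24 h (horizontal axis, times not to scale) for the measured members of 6 gene lists. Grey lines are genes and black lines are list medians. The stress response and transporter medians stay above 0 at each time, and the sterol median is lowest at 24 h.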

How the data were processed

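RNA was measured in hTERT-HPNE cells by poly(A)-selected, stranded RNA-seq with paired-end reads. Reads were aligned with HISAT2 and counted with HTSeq, and hg19 is named in the submitters' processing notes, all without versions; the annotation and the strand setting of the counting are not given in the sources used here. The deposited values are rLog values on a log2 scale that the authors made with DESeq2 over all 21 libraries. With no counts among these values, library depth is unknown. Libraries are labelled as biological replicates. Of 23368 genes listed, 19694 varied and were tested, and 3674 at 0 throughout were not. The list holds 28 gene names that had been turned into dates, and 2 names occur more than once. Measurements by other assays were not analysed here.

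All 7 groups of 3 libraries were fitted together in limma 3.58.1 (R 4.3.3) with a mean-variance trend, and p-values were adjusted by the Benjamini-Hochberg method over all genes tested. Calls were made at an adjusted p-value under 0.05 with an absolute log2 difference over 1, over 0.5 or of any size. The fit was tested on simulated data, but no outcome of that test is given here. The genes and lists were chosen with earlier results of these data known, and no test was made on a list. Some lists overlap in their members, such as CHAC1 and LIF, so their counts are not independent. Genes for naming were those past the limit of 1, the 15 largest rises and 15 largest falls without overlap at a mean of at least 5, the 3 largest called members of each list, a set of stress and cell cycle genes, and the 5 largest genes that changed sign from 4 h to 24 h. From these and from further list members, examples were taken after their values had been seen. Older symbols were matched through a table of gene names. The tables of cell type markers hold a few genes beyond those fixed at the start. Promoters came from a RefSeq table on GRCh38.p14, whereas the values rest on hg19, and no coordinates were carried between them. Alternatives were another normalization, a filter on low values, other limits, a fit of the 6 libraries alone, the replicate number as a block, and leaving out each library. An estimate of the spread without the trend was added after seeing the data.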

Additional observations from a re-analysis of the deposited data

Results flagged for a closer look

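For 28 of the 32 genes named for the size of their difference at 24 h or for a change of sign, the gap separating H2O2 from NCS was not the same at 24 h as at 4 h by the limma interaction test at an adjusted p-value under 0.05, across libraries that the times do not share. Over all genes the same test called 7750 of 19694, and since these genes were chosen by their difference at 24 h or by opposite signs at 4 h and 24 h, their count in part restates that choice. Each value here is the log2 difference at 24 h minus that at 4 h. It was positive for DHRS2 (1.37), UNC5B (1.27), GDF15 (1.15), FOXQ1 (0.97), G0S2 (0.89), ABCC3 (0.85), TM6SF1 (0.85), FAM129A (0.81), LOC344887 (0.79), SMOX (0.52) and KCNG1 (0.30), so that H2O2 gained on NCS. It was negative for DDIT4 (-0.56), which stayed higher after H2O2 at 24 h, and for the genes that were lower after H2O2 at 24 h. Among these were PADI1 (-1.09), LMOD1 (-0.95), LOC730755 (-0.88), IGFBP5 (-0.87), CPA4 (-0.84), B3GALT2 (-0.83), TP53INP2 (-0.83), NRXN3 (-0.82) and PSG5 (-0.79). The others were SCD (-0.73), HHIP (-0.67), GALNT5 (-0.66), QPRT (-0.65), KIAA1199 (-0.51), LRRN3 (-0.36) and PRICKLE1 (-0.36). Of the other 133 genes chosen for naming, 93 passed the same test. Single outlying samples were not tested for in groups of 3 libraries.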

How the results depend on the processing

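Of 314 counts and medians recomputed under the alternatives, 288 stayed within 1.5 times the reported count or within the spread of replicates. Raising the limit of 0.5 to 0.58 left 55 higher and 35 lower genes, and an adjusted p-value under 0.01 left 1359 higher and 1441 lower. Aligning library medians gave 5800 lower genes at any size, 9077 genes whose difference departed from that at 8 h, and 1, 4 and 1 lower members of the glutathione, xenobiotic and stress response lists. Quantile normalization left 1 lower xenobiotic gene, and a mean of at least 5 gave 1 lower glutathione gene. Median distances between and within treatments were 7.38 and 2.98 over the 500 most variable genes and 18.4 and 8.71 at a mean of at least 5, both over fewer genes. Leaving out 1 library gave 2 to 5 genes past the limit of 1, 0 to 1 lower glutathione genes, 1 to 2 lower xenobiotic genes, 25 to 40 higher mitotic genes and 3 to 5 higher matrix genes. It gave 86 to 95 higher and 67 to 76 lower genes at 0.5, and 1693 to 1835 and 1727 to 1889 at any size. CCNE2, which passed no test, changed sign to -0.0257 with medians aligned, -0.038 with quantile normalization, and without H2O2 replicate 1, NCS replicate 1 or NCS replicate 3, lying between -0.0216 and 0.0222 whichever library was left out. Of the 156 named genes called, 18 lost the call under some alternative, and 6 others gained one. These were CDKN1A, PMAIP1, MKI67, CCNB1 and LMNB1 in a fit of the 2 groups at 24 h, MKI67, CDC6 and LMNB1 with medians aligned and at a mean of at least 5, and CDC6 also with quantile normalization and without H2O2 replicate 1 or NCS replicate 1. Over the other 40 lists, 292 of 330 recomputed counts of 5 or more stayed within 1.5 times, and 26 of those beyond it came from leaving out a library. The others were, with medians aligned, lower counts of 22 clustered histones, 28 respiratory chain genes and 10 splicing factors; with quantile normalization, 4 lower heat shock chaperones, 4 lower proteasome and 2 lower ribosomal protein genes, 4 higher cytokine genes and 4 higher noncoding RNAs; in the fit of the 2 groups, 7 higher replication and 5 lower proteasome genes; and at a mean of at least 5, 3 lower EGF receptor and ligand genes and 4 higher cytokine genes. Without the mean-variance trend 91, 66, 2144 and 2083 genes were called. The causes of these shifts were not tested.

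Same-numbered libraries at 24 h correlated at 0.077, 0.069 and 0.113 in their deviations from the group means, so the numbers were not taken to pair them, although each library correlated best with its own number, a hint from the data. With the replicate number as a block, 3 and 0 genes passed the limit of 1, 91 and 66 that of 0.5, and 2232 and 2181 the adjusted p-value alone, the differences departed from those at 4 and 8 h for 7791 and 4358 genes, and 1 xenobiotic gene was lower. Among the named genes the block gave MKI67 a call (adjusted p = 0.0494 from limma) and took that of CRYAB. The unknown depth leaves it undetermined which low genes could have shown a difference.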
